A study of Homo sapiens with 14 samples.

Results

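The early transcriptional response of RS4;11 cells to dexamethasone was compared over 9 of the 14 arrays of the series, the 5 arrays of cells treated for 8 h and the 4 arrays of untreated cells. RS4;11 is an established human cell line grown from an acute lymphoblastic leukemia of B-cell precursors, and its KMT2A gene is rearranged. All cells, the untreated ones included, had been kept for 48 h in medium without hormones, and the treated cells then received dexamethasone at 10 nM. The other 5 arrays hold cells after 24 h of the same treatment and entered the model only to share its estimate of the spread and of the run. Transcripts were measured as log2 expression values on a human array of 22277 probe sets, and the 19070 probe sets annotated with exactly 1 gene gave 11963 genes, each as the mean of its probe sets. Every one of these genes was compared, with the run named in the sample labels as a block. No source states that replicates were separate cultures. The p-values may therefore rest on technical spread between arrays alone. No array of cells kept for the same 8 h without dexamethasone was analysed here, so the drug and the time in culture cannot be told apart. Fewer cells of a kind and less RNA per cell cannot be told apart in these bulk samples either.

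Dexamethasone is a synthetic glucocorticoid. It binds the glucocorticoid receptor, a nuclear receptor held by chaperones in the cytoplasm, which then enters the nucleus and raises or lowers the transcription of genes from enhancers and promoters. In lymphoid cells, and in acute lymphoblastic leukemia in particular, glucocorticoids slow growth and cause cell death, and they act through other transcription factors, receptors, kinases and metabolic enzymes that their target genes encode. These classes are described here family by family, past the genes with the largest changes.

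At 8 h, 3243 of the 11963 genes passed at a Benjamini-Hochberg adjusted p below 0.05 in limma, which is 27.1% of all genes tested. Of these, 1428 were higher (11.9% of all genes) and 1815 were lower (15.2%). The response was broad and mostly small. The median rise among genes that passed was 0.35 on the log2 scale and the median fall −0.33, and 2584 of the 3243 changed by less than 1.5-fold. At least 2-fold changes were seen for 145 genes that rose (1.21% of all genes) and 73 that fell (0.610%). In 2179 genes (18.2%) the untreated and the 8 h values did not overlap. Apart from NR3C1, genes named by rule below had to pass and to show no overlap. The separation of their groups therefore follows from the pick and is no added result. The 8 h minus untreated difference had the sign of the fitted change in 4 of 4 runs for 95.8% of the genes that passed and for 16.8% of those that did not. The test uses these same differences, so this contrast is largely built in. Genes with a mean log2 value below 5, where signal is weak, passed in 6.58% of cases, against 42.7% between 7 and 9. The number of members below 5 is given for families in which they are the majority. Counts for each family below are to be read beside the 11.9% higher and 15.2% lower over all genes. In what follows, a gene is said to rise or fall where it passed this test, a change is a log2 fold change, and replicate values are listed in the order of replicates 1 to 4 and 1 to 5. Replicate 4 at 8 h came from run 5, which holds no untreated array, and informs a blocked fold change only through its 24 h partner.

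**Figure D1:**
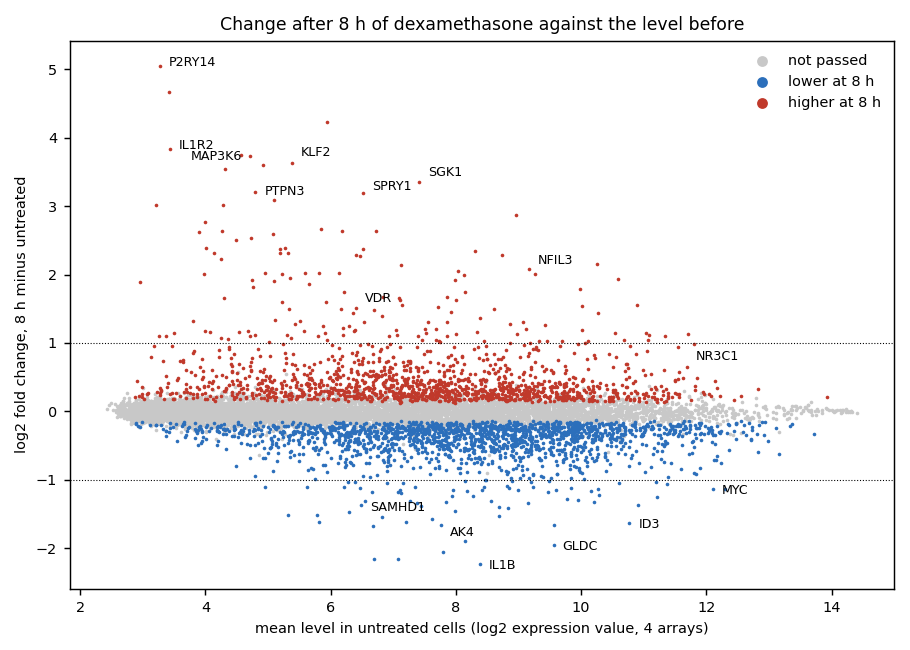
Each point is a gene (a few sex-linked genes are left out), with its mean log2 value in the 4 untreated arrays on the x axis and its log2 fold change at 8 h from limma on the y axis. Red genes passed as higher and blue genes as lower, dotted lines mark 2-fold, and the largest rises (P2RY14 at 5.05) exceed the largest falls (IL1B at −2.22) in size.

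The receptor itself rose. NR3C1, which encodes the glucocorticoid receptor, had log2 values of 11.72, 11.62, 11.71 and 11.73 in untreated cells and 12.35, 12.34, 12.40, 12.31 and 12.34 at 8 h. Both groups were tight and did not overlap, and the change was 0.65 (SE 0.05, adjusted p = 1.26e-06), with differences of 0.63, 0.72, 0.69 and 0.61 in runs 1 to 4. Untreated replicate 2 was the lowest of its group and the 8 h arrays were all above it.

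The sequence that the receptor binds is an imperfect palindrome of a pair of short arms around a spacer, and its core was looked for in the promoters of the genes that rose. RefSeq windows of GRCh38.p14 from 250 bases before to 50 bases after each annotated start site were matched to 9546 of the genes tested, by gene identifier. The core ACANNNTGT, which reads the same on both strands, was found in 21 of 228 windows (9.21%) of genes that rose at least 2-fold, belonging to 19 of 116 genes. It stood in 545 of 14034 windows (3.88%) of all genes tested, belonging to 506 of 9546 genes. In the whole table it stood in 1885 of 35116 windows (5.37%). Among genes that fell at least 2-fold it stood in 3 of 88 windows (3.41%), belonging to 3 of 56 genes. Windows of the same gene can overlap, so that a site can be counted more than once, and no test was made. The full palindrome of the consensus glucocorticoid response element, which holds this core, was in 0 of the 228 windows and in 2 of the 14034. These counts describe letters in a short stretch next to the start site and say nothing of distant sites. The windows below show the core in capitals for 5 genes of the classes described here: a MAP kinase kinase kinase, a thioredoxin inhibitor, a tyrosine phosphatase, a calcineurin inhibitor and a membrane-bound transcription factor. All 5 lie on the minus strand.

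MAP3K6: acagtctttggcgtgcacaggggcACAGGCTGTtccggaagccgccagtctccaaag
TXNIP: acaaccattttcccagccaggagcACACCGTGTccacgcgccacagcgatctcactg
PTPN3: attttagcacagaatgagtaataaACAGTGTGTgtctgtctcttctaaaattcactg
RCAN1: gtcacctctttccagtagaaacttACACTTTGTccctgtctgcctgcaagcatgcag
CREB3L2: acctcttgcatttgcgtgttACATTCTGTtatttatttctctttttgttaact

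In MAP3K6 (chr1:27367079-27367135) the first base of the core lies 150 bases before the start site, and in TXNIP (chr1:145996720-145996776) 173 bases before it. The distance is 71 bases for PTPN3 (chr9:109451423-109451479), 153 bases for RCAN1 (chr21:34526943-34526999) and 230 bases for CREB3L2 (chr7:137933186-137933238).

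Transcription factors passed about as often as all genes. Of 591 factors measured, 80 rose and 97 fell, which is 13.5% and 16.4% against the 11.9% and 15.2% over all genes, and their median change was −0.02, against −0.01 over all genes. At least 2-fold, 12 factors rose and 8 fell, against 145 and 73 over all genes. The plot of the share of members that passed gives both directions for each list shown, with no test of a difference between lists.

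**Figure D2:**
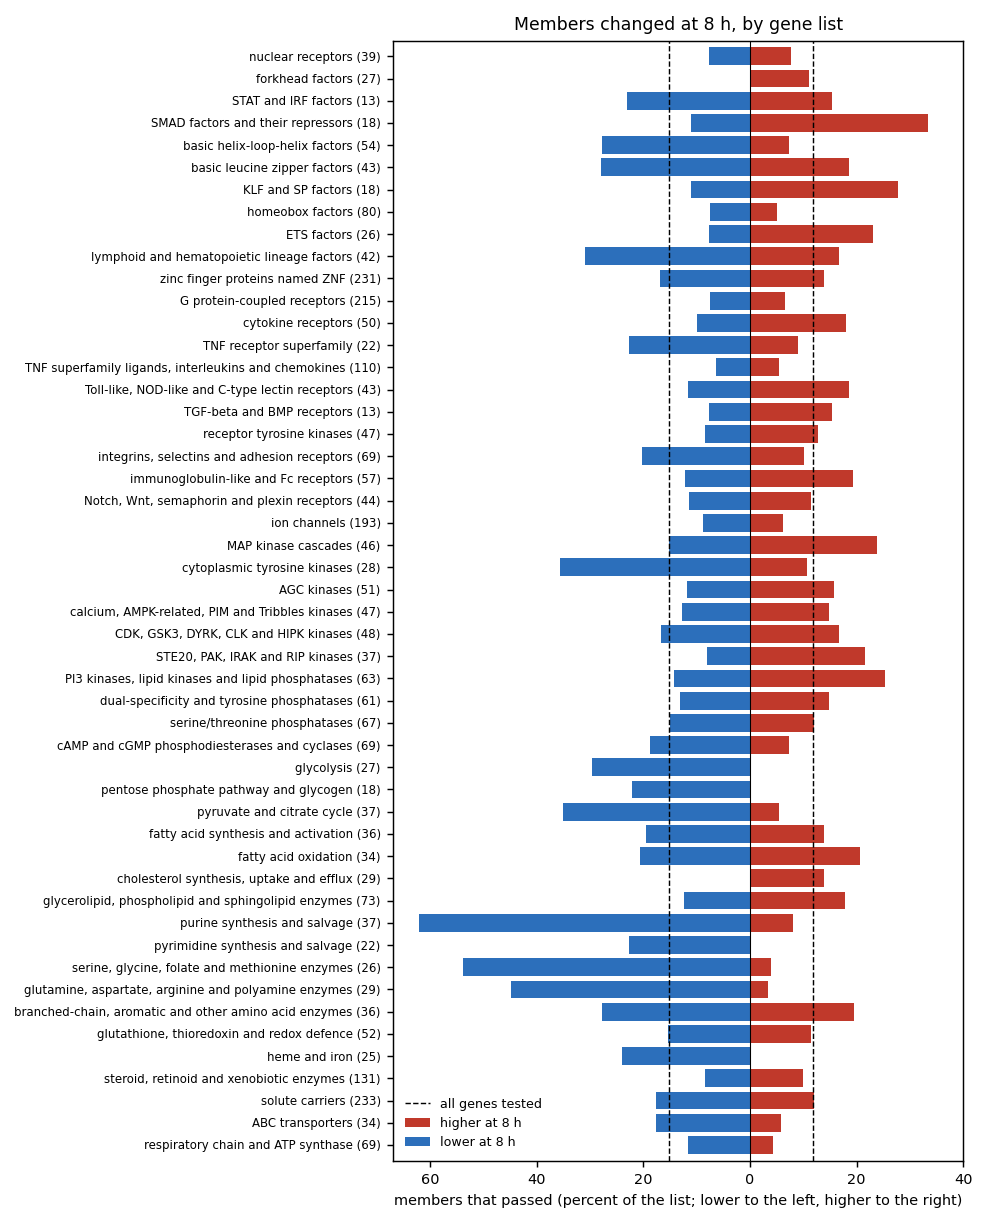
For each gene list shown, with its number of measured genes in brackets, red bars to the right give the percent of members that rose and blue bars to the left the percent that fell. Dashed lines mark the shares over all genes tested (11.9% higher and 15.2% lower), which the purine list exceeds on the lower side with 62.2%.

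Few nuclear receptors passed. Of 39 measured, 3 rose and 3 fell, and 22 had a mean log2 value below 5. VDR, the vitamin D receptor, showed the largest change of this family, with log2 values of 6.43, 6.44, 6.46 and 6.29 in untreated cells and 7.84, 7.91, 8.03, 7.90 and 7.95 at 8 h. All 8 h arrays were above all untreated arrays, and the change was 1.51 (SE 0.06, adjusted p = 3.87e-09). Its probe sets ran from 0.24 to 2.46, so the size of the rise depends on the probe set. NR3C2, the mineralocorticoid receptor and nearest relative of NR3C1, rose by 0.66. On the lower side stood NR1D2 (−0.64), a repressor of the circadian clock, RORB (−0.53) and PPARG (−0.21), of which PPARG did not pass when any of 7 single arrays was left out.

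Among the 18 Krüppel-like and SP factors, 5 rose and 2 fell. KLF7, a zinc finger activator, had log2 values of 5.87, 5.73, 5.92 and 5.86 in untreated cells and 8.44, 8.46, 8.60, 8.36 and 8.58 at 8 h. The 8 h values kept within a narrow band above the untreated ones, for a change of 2.67 (SE 0.06, adjusted p = 3.84e-11). KLF2 (3.63), a factor of lymphocyte quiescence, changed by more, and KLF6 (0.60), KLF13 (0.60, not passed without the block) and the glucocorticoid-responsive KLF9 (0.56) by less. KLF10 (−0.51) fell. The other fall, of KLF4 (−0.23), did not pass without the block or when any of 11 single arrays was left out.

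SMAD factors, which carry signals from TGF-beta and BMP receptors, were listed together with their repressors. Of these 18 genes, 6 rose and 2 fell. SMAD7, an inhibitor of TGF-beta signaling, had log2 values of 4.34, 4.44, 3.71 and 4.05 in untreated cells and 6.19, 6.46, 6.56, 6.45 and 6.62 at 8 h. The untreated values spread more than those at 8 h, and the groups were far apart, with a change of 2.32 (SE 0.12, adjusted p = 7.02e-08). On day 1 (runs 1 and 2) the change of SMAD7 was 1.93, and on the later days (2 to 4) it came to 2.67. This difference passed (adjusted p = 0.0173, limma). Here and below, the split by day was chosen after the data had been seen. Day 1 is a single day, so a p-value for the split measures spread between arrays and not between days. SMURF1, a ubiquitin ligase that works with SMAD7, rose by 1.25. The signal-carrying SMAD3 (0.76) and SMAD1 (0.50) and the receptor gene TGFBR2 (0.56) rose as well, while the corepressors TGIF1 (−0.27) and TGIF2 (−0.39) and the decoy receptor BAMBI (−0.57) fell, TGIF1 not without the block.

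Forkhead factors rose in 3 of 27 members (11.1%), near the 11.9% over all genes. None fell by limma, where 6 were higher and 0 lower at an unadjusted p below 0.05. The 3 that passed belong to the FOXO group, which act downstream of AKT. FOXO3 had log2 values of 9.04, 9.25, 9.04 and 8.78 in untreated cells and 9.83, 9.92, 9.87, 9.48 and 9.66 at 8 h. Every 8 h value was above every untreated value, although the arrays of each group were spread. Its change was 0.80 (SE 0.05, adjusted p = 1.82e-07), and FOXO1 rose by 0.58. FOXO4 (0.23) did not pass without the block or when any of 7 single arrays was left out. Of the 27 forkhead genes 18 had a mean log2 value below 5.

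The basic leucine zipper family moved both ways, with 8 of 43 members higher and 12 lower. Without the block 4 members rose, and the count of risers was as low as 5 when single arrays were left out. NFIL3, a repressor that is induced in many lymphoid cells, had log2 values of 9.28, 9.21, 9.14 and 9.01 in untreated cells and 11.38, 11.36, 11.12, 11.15 and 11.11 at 8 h. It was high in every array after treatment, with a change of 2.07 (SE 0.05, adjusted p = 6.53e-11). CREB3L2, a factor released from the endoplasmic reticulum, rose by 1.15. The falling members included factors of the amino acid and stress response and CCAAT-binding factors: ATF3 (−1.62), CEBPB (−1.28), DDIT3 (−1.11), ATF5 (−0.73), CEBPA (−0.66), ATF4 (−0.59) and CEBPG (−0.47). The change of CEBPB was −1.93 on day 1 and −0.67 on the later days, a difference that passed (adjusted p = 6.08e-04, limma). The same held for ATF3 (−2.03 against −1.20) and ATF4 (−0.85 against −0.34), each lower after treatment on both sides of the split. BACH2, a repressor of B cells, fell by 0.66, with −1.11 on day 1 and −0.25 on the later days.

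Basic helix-loop-helix factors fell in 15 of 54 members (27.8%, against 15.2% of all genes) and rose in 4 (7.41%, against 11.9%). Inhibitors of this family moved in opposite directions. ID2 had log2 values of 7.55, 7.54, 8.25 and 7.53 in untreated cells and 9.13, 9.37, 9.31, 9.17 and 9.13 at 8 h. Untreated replicate 3 stood apart from the other 3 untreated arrays but below all treated arrays, and the change was 1.53 (SE 0.10, adjusted p = 5.06e-07). ID3, a close relative, had values of 10.78, 10.88, 10.92 and 10.50 in untreated cells and 9.26, 9.31, 8.88, 9.15 and 9.08 at 8 h. Here all treated arrays were lower, with a change of −1.63 (SE 0.08, adjusted p = 4.84e-08). MYC (−1.13) fell together with the genes of its network MXI1 (−1.41), MNT (−0.73) and MGA (−0.31), which encode other partners of the MYC partner MAX. The change of MXI1 was −2.10 on day 1 and −0.80 on the later days. Also lower were the clock factor BHLHE41 (−0.89, not without the block), the lysosomal regulator TFEB (−0.53), the lipid regulator SREBF1 (−0.48), the E protein TCF4 (−0.43) and HIF1A (−0.39). ARNT2 rose by 1.07, and on day 1 alone, at 0.51, it did not pass.

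Among 42 lymphoid and hematopoietic lineage factors, 7 rose and 13 fell. The count of 13 was 7 without the run as a block and 5 on the later days. BCL6, a repressor of germinal center and precursor B cells, had log2 values of 9.78, 9.69, 10.03 and 9.88 in untreated cells and 8.51, 8.54, 8.89, 9.17 and 8.91 at 8 h. Treated arrays were all lower, and the change was −1.12 (SE 0.06, adjusted p = 5.12e-08). MYB (−0.55), IKZF2 (−0.61), GATA3 (−0.49) and LEF1 (−0.45) fell by less. ZBTB16, a known glucocorticoid target, rose by 3.55, MEF2A by 0.96 and BCL11B by 0.70. Among the ETS factors 6 of 26 rose, led by ETS2 (0.78) and ETS1 (0.48), and 2 fell, of which ETV5 (−1.19), a target of growth factor signaling, changed most. ELK3 rose by 0.48 as a mean of probe sets from −0.07 to 1.03. The list of homeobox factors and LIM proteins had few changes, with 4 of 80 higher and 6 lower and 51 below 5, among them a rise of the LIM protein LMO2 (0.99) and a fall of PBX3 (−0.46). Of 13 STAT and IRF genes, IRF9 (0.51) and STAT3 (0.40) rose, and STAT6 (−0.28), IRF5 (−0.27) and IRF1 (−0.27) fell. The fall of IRF1 did not pass on day 1 taken alone, and that of IRF5 did not pass without the block. The 231 genes named ZNF split into 32 that rose and 39 that fell, close to the background, with ZNF318 (1.11) and ZNF395 (−0.97) at the ends. The count of ZNF risers was between 20 and 33 with single arrays left out and 9 on day 1.

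**Figure D3:**
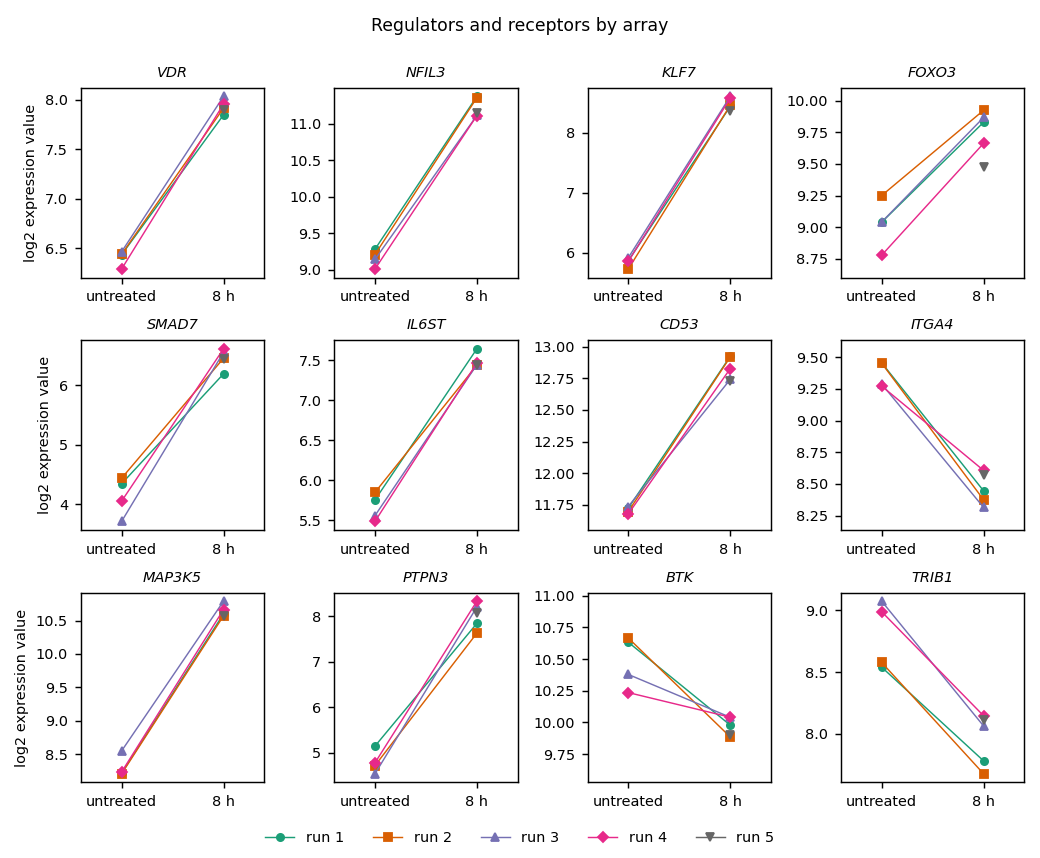
Each panel gives the log2 expression value of a gene in the untreated arrays and the 8 h arrays, with a line for each of runs 1 to 4 and a single point for run 5, which has no untreated array. The 12 genes were picked among those whose untreated and 8 h values do not overlap, which fixes that the lines of a gene run in 1 direction.

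Receptors and their ligands passed at a lower share than all genes. Of 862 genes, 82 rose and 86 fell (9.51% and 9.98%, against 11.9% and 15.2% over all genes). A mean log2 value below 5 was found for 556 of them, against 4255 of all 11963 genes. Genes below 5 passed in 6.58% of cases. Whether weak signal accounts for the lower share was not tested. Of the changes of at least 2-fold, 22 were rises and 5 were falls, against 145 and 73 over all genes. In G protein-coupled receptors, 14 of 215 rose and 16 fell, without the block 10 fell, and 150 had a mean below 5. P2RY14 (5.05), a receptor for nucleotide sugars, had the largest rise of all genes. ADGRE2 (1.18), an adhesion receptor of leukocytes, the Wnt receptor FZD6 (1.17), the chemokine receptor CCR1 (1.16) and GPR63 (1.12) rose as well. CXCR4, the receptor for the marrow chemokine CXCL12, rose by 0.58. GPR18 (−0.80), the thrombin receptor F2R (−0.66) and S1PR1 (−0.36), a receptor of lymphocyte egress, fell. The change of GPR18 was −0.50 on the later days. LGR5, a Wnt-modulating receptor, fell by 1.67 as a mean of probe sets from −2.77 to −0.57.

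Cytokine receptors rose in 9 of 50 members and fell in 5, and 27 had a mean below 5. IL6ST, the signaling chain shared by the receptors of the interleukin 6 family, had log2 values of 5.75, 5.85, 5.56 and 5.49 in untreated cells and 7.64, 7.44, 7.44, 7.44 and 7.46 at 8 h. The treated arrays were all higher, for a change of 1.86 (SE 0.07, adjusted p = 3.51e-09), with probe sets from 0.31 to 2.41. IL1R2 (3.84), a decoy receptor whose probe sets ran from 3.22 to 4.45, rose together with the signaling receptor IL1R1 (1.14) and its partner IL1RAP (0.37). IFNGR1 (1.16) and IL7R (0.23) were higher too. IL21R (−0.75) fell, as did IL2RG (−0.35), the chain it shares with other receptors. IL2RG was −0.54 on day 1 and −0.20 on the later days, where it did not pass. Of the ligands, TNFSF8 (1.07) and TGFB3 (0.59) rose and IL1B (−2.22), the chemokine CCL5 (−1.05), VEGFA (−1.03) and CD70 (−0.68) fell, within a list of 110 in which 6 rose, 7 fell and 89 had a mean below 5.

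The TNF receptor superfamily had 2 rises and 5 falls in 22 members, 12 of them below 5. TNFRSF21, a death domain receptor, rose by 1.02. TNFRSF1A, the main receptor for TNF, fell by 0.74, with −1.09 on day 1 and −0.44 on the later days. TNFRSF17 (−0.55) and FAS (−0.31), a receptor of cell death, fell as well. FAS did not pass on the later days, where its change was −0.18. Among 57 immunoglobulin-like and Fc receptors, 11 rose, 7 fell and 31 had a mean below 5, and 8 of the risers were leukocyte immunoglobulin-like receptors (LILR), from LILRA1 (3.74, probe sets 2.05 to 5.43) to LILRB3 (0.38). These genes are close paralogs, and a probe set of one may hybridize with another, which was not tested. FCER1G, the signaling chain of Fc receptors, rose by 1.66. CD48 (−0.90), CD38 (−0.57), CD22 (−0.56) and LY9 (−0.53), all surface proteins of lymphoid cells, fell. The change of CD38 was −0.36 on the later days. The LILR genes are known from myeloid cells. All 14 monocyte and granulocyte markers measured (CD14, LYZ, MPO and others) failed to pass in limma (2 were lower at an unadjusted p below 0.05), 13 of them had a mean below 5, and their mean log2 value per array was 3.87 to 3.94 in untreated cells and 3.81 to 3.91 at 8 h.

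Adhesion receptors fell in 14 of 69 members (20.3%, against 15.2% of all genes) and rose in 7, and 40 had a mean below 5. With single arrays left out the falls numbered from 9 to 16, and 8 fell without the block. ITGA4, the alpha chain of an integrin that binds VCAM1 on marrow stroma, had log2 values of 9.46, 9.45, 9.29 and 9.27 in untreated cells and 8.44, 8.37, 8.31, 8.57 and 8.61 at 8 h. Its 8 h arrays were all lower, with a change of −0.94 (SE 0.06, adjusted p = 4.67e-07). ITGA9, an alpha chain of the same subfamily, rose by 2.01. ICAM2 (−1.13), ALCAM (−0.93), ITGAL (−0.75) and the tetraspanin CD37 (−0.65) fell. CD53, another tetraspanin of leukocytes, was already strong before treatment, with log2 values of 11.72, 11.70, 11.74 and 11.68 in untreated cells and 12.92, 12.92, 12.74, 12.73 and 12.83 at 8 h. It rose in every run, by 1.13 (SE 0.05, adjusted p = 1.93e-08).

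Receptor tyrosine kinases rose in 6 of 47 members and fell in 4, with 32 below 5, and the rises numbered 3 to 6 with single arrays left out. INSR, the insulin receptor, rose by 0.79 (SE 0.05, adjusted p = 6.49e-07), from log2 values of 8.32, 8.38, 8.43 and 8.37 in untreated cells to 9.20, 9.14, 9.21, 9.16 and 9.17 at 8 h. The groups did not overlap. FLT3, a receptor active in KMT2A-rearranged leukemia, rose by 0.53, while PDGFRB (−0.74) fell. NOTCH1 fell by 0.69, and NOTCH2 rose by 0.27, in a list of 44 Notch, Wnt, semaphorin and plexin genes with 5 changes each way. Toll-like, NOD-like and C-type lectin receptors rose in 8 of 43 members, with TLR7 (0.62) and CD69 (0.70, not passed without the block), and fell in 5, with NLRP3 (−0.73). On day 1 the list had 3 rises and 9 falls. Ion channels passed rarely (12 of 193 higher, 17 lower, 9 lower without the block), and 136 had a mean below 5. P2RX5, an ATP-gated channel, rose by 2.06 and its relative P2RX7 fell by 0.77. CHRNA1 rose by 2.62, with probe sets from 1.45 to 3.78.

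Genes of kinases, phosphatases and other signaling proteins rose in 102 of 639 cases and fell in 99. These shares were 16% and 15.5%, against 11.9% and 15.2% over all genes. Large changes were mostly rises, 20 of at least 2-fold against 5 falls, as they were over all genes (145 against 73). In the MAP kinase cascades 11 of 46 members rose and 7 fell, and 5 rose without the block. MAP3K5, the stress-activated kinase also called ASK1, had log2 values of 8.22, 8.21, 8.55 and 8.24 in untreated cells and 10.60, 10.57, 10.79, 10.57 and 10.66 at 8 h. The 8 h arrays lie close together and far above the untreated ones, with a change of 2.35 (SE 0.05, adjusted p = 5.60e-11). MAP3K6, its relative and partner, rose by 3.60 and MAP3K8 by 0.78. Both kinases of the ASK1 kind act above the p38 and JNK cascades, of which MAP2K6 (−0.76), MAPKAPK3 (−0.55) and MAPK12 (−0.53) fell and MAP2K4 (0.19) and MAPK13 (0.24) rose, the latter pair not without the block. MAP2K4 also did not pass when any of 4 single arrays was left out. MAP2K1, of the ERK cascade, rose by 0.61.

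SPRY1, an inhibitor of ERK signaling, had log2 values of 6.36, 6.34, 6.65 and 6.70 in untreated cells and 9.44, 9.49, 9.84, 10.05 and 10.01 at 8 h. The untreated and treated arrays were far apart, with a change of 3.19 (SE 0.07, adjusted p = 5.28e-11). Its relative SPRY2 fell by 0.50, and SPRY4 rose by 0.34. RASA2 (1.59), a GTPase-activating protein for Ras, rose, and RASGRP1 (−1.17), a Ras activator of lymphocytes, fell. RIN2 (3.08), RASSF4 (1.18) and VAV3 (1.13) rose, and the regulators of G protein signaling RGS13 (−0.87), RGS16 (−0.84) and RGS2 (−0.82) fell.

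PTPN3, a tyrosine phosphatase whose promoter window is shown above, had log2 values of 5.15, 4.72, 4.54 and 4.78 in untreated cells and 7.85, 7.63, 8.21, 8.08 and 8.34 at 8 h. It went from weak to clear signal in every run, with a change of 3.21 (SE 0.14, adjusted p = 1.07e-08), 2.81 on day 1 and 3.60 on the later days. Of 61 dual-specificity and tyrosine phosphatases 9 rose and 8 fell. DUSP10, which acts on p38 and JNK, rose by 0.57 (0.33 on day 1 and 0.81 on the later days), and PTPN7 (−0.59) and PTPN22 (−0.43), phosphatases of lymphocytes, fell. RCAN1, an inhibitor of the phosphatase calcineurin, rose by 1.43 as a mean of probe sets from 0.06 to 2.45. In the phosphoinositide list 16 of 63 members rose and 9 fell, with 7 rises on the later days. INPP1 (2.64), an inositol phosphatase, and PIK3IP1 (2.38, probe sets 1.41 to 3.35), an inhibitor of PI3 kinase, led the rises, and ITPKA (−1.39), an inositol trisphosphate kinase, and PIK3C2B (−0.76) led the falls.

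Cytoplasmic tyrosine kinases fell in 10 of 28 members (35.7%, against 15.2% of all genes) and rose in 3 (10.7%, against 11.9%). The falls numbered 5 without the block and 5 on day 1. BTK, a kinase of the B-cell receptor pathway, had log2 values of 10.63, 10.67, 10.38 and 10.24 in untreated cells and 9.98, 9.89, 10.04, 9.90 and 10.04 at 8 h. Its 8 h arrays lay below all untreated arrays, and the change was −0.50 (SE 0.08, adjusted p = 6.95e-04), with −0.65, −0.78, −0.34 and −0.19 in runs 1 to 4. It was smaller on the later days (−0.30) than on day 1 (−0.72), but the difference did not pass (adjusted p = 0.0698, limma). LCK (−0.51), ZAP70 (−0.50), FYN (−0.49) and LYN (−0.21) fell, and BLK (0.40), a B-lineage kinase, rose.

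SGK1 (3.36), a kinase of the AKT type and a known glucocorticoid target, led 51 AGC kinases, of which 8 rose and 6 fell (4 rose without the block). SIK1, a salt-inducible kinase that restrains cAMP-dependent transcription, had log2 values of 5.21, 5.01, 5.29 and 5.88 in untreated cells and 7.26, 7.20, 7.39, 7.27 and 7.37 at 8 h. It rose in every run, by 1.95 (SE 0.11, adjusted p = 9.66e-08). The pseudokinases TRIB3 and TRIB1 fell. TRIB1 had values of 8.54, 8.58, 9.07 and 8.99 in untreated cells and 7.78, 7.68, 8.06, 8.12 and 8.15 at 8 h, with a change of −0.87 (SE 0.07, adjusted p = 1.43e-06), and TRIB3, a target of ATF4, fell by 1.23 (−1.63 on day 1 and −0.82 on the later days, adjusted p of the difference = 0.00805, limma). IRAK3, an inhibitory kinase of Toll-like receptor signaling, rose by 1.49 (SE 0.08, adjusted p = 5.67e-08), and ULK1, a kinase that starts autophagy, by 1.05. CDK4, the kinase of the D cyclins, changed by −0.75 (SE 0.06, adjusted p = 2.52e-06) in a list of 48 with 8 changes each way. The cAMP and G protein list fell in 13 of 69 members and rose in 5, and 8 fell without the block. GNAI1, an inhibitory G protein chain, rose by 2.02, GNA12 rose by 1.39, and GNAZ (−1.09), GNA15 (−0.64) and the phosphodiesterase PDE3B (−0.63) fell.

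Of the 4 classes, metabolism had the widest gap between falls and rises. Of 929 genes, 190 fell (20.5%, against 15.2% of all genes) and 89 rose (9.58%, against 11.9%). Rises of at least 2-fold numbered 12 and such falls 9, against 145 and 73 over all genes.

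**Figure D4:**
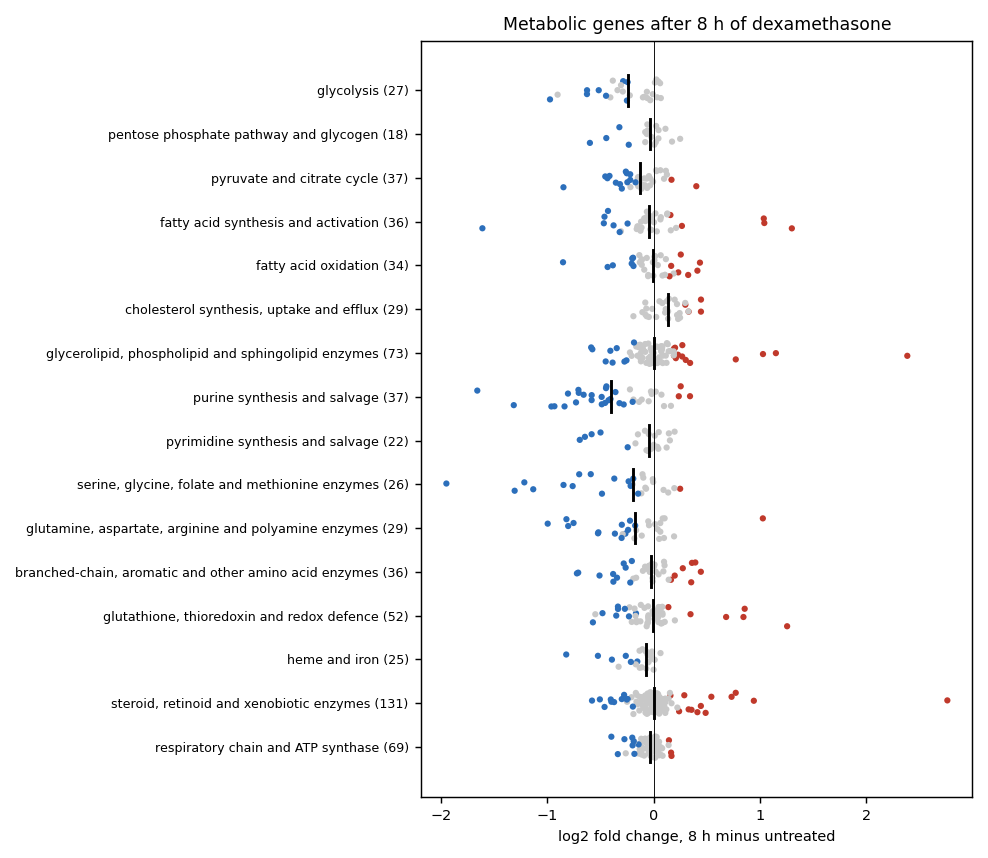
Each point is a gene of a metabolic list (number of genes in brackets), placed at its log2 fold change at 8 h, red where it rose, blue where it fell and grey where it did not pass, with a black bar at the median of the list. The purine list has the lowest median (−0.41), and glycolysis (−0.25) is next.

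Purine enzymes fell in 23 of 37 members (62.2%, against 15.2% of all genes) and rose in 3, with a median change of −0.41. The median within single runs was between −0.39 and −0.34. All 6 enzymes of the route from phosphoribosyl pyrophosphate to inosine monophosphate were lower, namely PPAT, GART, PFAS, PAICS, ADSL and ATIC. PAICS, a bifunctional enzyme of this route, had log2 values of 9.18, 9.17, 9.19 and 9.42 in untreated cells and 8.26, 8.15, 8.23, 8.33 and 8.53 at 8 h. The 8 h arrays lay clearly below, with a change of −0.93 (SE 0.09, adjusted p = 1.22e-05) and run differences of −0.92, −1.02, −0.95 and −0.89. PPAT, which takes the first committed step, changed by −0.84 (SE 0.06, adjusted p = 1.43e-06). PFAS (−0.71), ATIC (−0.46), GART (−0.41) and ADSL (−0.36) make up the rest. The steps to guanine nucleotides fell as well, with IMPDH1 (−0.49), GMPS (−0.45) and IMPDH2 (−0.28, not passed without the block or when any of 4 single arrays was left out). So did the salvage and breakdown enzymes ADA (−0.96), PNP (−0.49), ADK (−0.58) and APRT (−0.32). SAMHD1, which breaks down deoxynucleotides, had log2 values of 7.63, 7.83, 8.00 and 7.90 in untreated cells and 6.63, 6.34, 6.75, 6.51 and 6.28 at 8 h. It too was lower in every treated array, with a change of −1.32 (SE 0.09, adjusted p = 3.35e-07). NUDT1 (0.34, not passed on the later days), GMPR (0.25) and AMPD3 (0.24) were the members that rose, and 1 rose without untreated replicate 1. GMPR did not pass without the block or when any of 5 single arrays was left out, nor AMPD3 for any of 4. Pyrimidine enzymes fell in 5 of 22 members and rose in none by limma (1 was higher at an unadjusted p below 0.05), with DHODH (−0.70), CAD (−0.65), CTPS1 (−0.50) and UMPS (−0.24) of the synthetic route and the breakdown enzyme DPYD (−0.58). The count of falls was 3 without untreated replicate 2. UMPS did not pass when any of 7 single arrays was left out, nor DPYD for any of 4.

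Serine, glycine and folate enzymes fell in 14 of 26 members (53.8%, against 15.2% of all genes) and rose in 1. PHGDH, PSAT1 and PSPH, which make serine from a glycolytic intermediate, all fell. PHGDH, the first enzyme of the route, had log2 values of 10.67, 10.69, 9.87 and 9.93 in untreated cells and 9.05, 9.07, 8.94, 9.48 and 9.06 at 8 h. Treated arrays were below untreated ones, with a change of −1.22 (SE 0.14, adjusted p = 3.47e-05), but day 1 (−1.62) changed more than the later days (−0.83), and this difference passed (adjusted p = 0.0175, limma). PSAT1 (−1.31) and PSPH (−0.85) fell with it. GLDC, which cleaves glycine, fell by 1.95. The mitochondrial folate enzymes MTHFD2 (−1.13) and SHMT2 (−0.76) fell. The single riser, SHMT1 (0.25), did not pass without the block, on day 1, or without untreated replicate 3 or 8 h replicate 2 or 3. SHMT2 was at −1.14 on day 1 and −0.38 on the later days, and MTHFD2 at −1.48 and −0.80. GCSH went the other way, at −0.50 and −0.89. The difference between days passed in limma for 6 of the 26 members, of which 5 were lower on day 1. The median of the list was −0.19 on day 1 and −0.19 on the later days.

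Genes of glutamine, arginine and polyamine metabolism fell in 13 of 29 members (44.8%, against 15.2% of all genes) and rose in 1. GLUL, glutamine synthetase and a known glucocorticoid target, was the one that rose, with log2 values of 9.70, 9.75, 9.69 and 9.68 in untreated cells and 10.83, 10.77, 10.63, 10.70 and 10.74 at 8 h. Its groups were apart, for a change of 1.03 (SE 0.05, adjusted p = 2.59e-08). The proline enzymes PYCR1 and ALDH18A1 (−0.52), the arginine enzyme ASS1 (−0.80, not passed without the block) and the polyamine enzymes SRM (−0.82), ODC1 (−0.75) and SMS (−0.30) fell. The difference between days passed in limma for 9 of the 29 members, of which 7 were higher on day 1 and 2 lower. SRM and ODC1 fell more on the later days, with SRM at −1.17 against −0.45 on day 1 and ODC1 at −1.17 against −0.32. ASNS, which did not pass in the full model, went the other way. It was at −0.94 on day 1 and 0.26 on the later days (adjusted p of the difference = 0.0175, limma). Of the 29 members, 13 fell in the full model and 7 on day 1. A pair of amino acid carriers went the same way between days as PHGDH, SHMT2 and MTHFD2. SLC3A2 fell by 0.86 (−1.32 on day 1 and −0.41 on the later days). The change of its partner SLC7A5 (−0.45) was −0.88 on day 1 and −0.04 on the later days. SLC7A5 did not pass on the later days or when any of 4 single arrays was left out.

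Glycolytic genes fell in 8 of 27 members and rose in none by limma, where 14 were lower and 0 higher at an unadjusted p below 0.05. The list had a median of −0.25, but its count rests on single arrays, at 4 without untreated replicate 3 or 4 and 14 without 24 h replicate 2. PFKM, a phosphofructokinase, had log2 values of 9.84, 9.88, 9.75 and 9.86 in untreated cells and 8.61, 8.69, 8.86, 9.03 and 9.21 at 8 h. It was lower in all treated arrays, with a change of −0.98 (SE 0.10, adjusted p = 1.33e-05). PGK1 (−0.45) fell as well. In pyruvate and citrate cycle genes 13 of 37 fell (8 on day 1) and 2 rose. PCK2, the mitochondrial enzyme that makes phosphoenolpyruvate, fell by 0.85, with −1.34 on day 1 and −0.37 on the later days (adjusted p of the difference = 0.0025, limma). The kinases that inactivate pyruvate dehydrogenase, PDK1 (−0.43), PDK3 (−0.32) and PDK2 (−0.22), fell. The rise of its activating phosphatase PDP1 (0.40) did not pass without the block, where no member of the list rose in limma, or on the later days. Respiratory chain genes passed in 11 of 69 cases, 3 higher and 8 lower, none of them beyond −0.40 (ATP5MC1), and in 0 without the block, where limma had 9 lower and 0 higher at an unadjusted p below 0.05.

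Lipid genes moved both ways. In fatty acid synthesis and activation 5 of 36 rose and 7 fell (3 on day 1). SLC27A3 (1.30), a fatty acid activating enzyme, and ACACB (1.04, probe sets 0.17 to 1.41), a carboxylase that curbs fatty acid entry into mitochondria, rose. SLC27A2 (−1.61) and SLC27A5 (−0.46) of the first family fell. In fatty acid oxidation 7 of 34 members changed each way, with CPT1A, the entry enzyme, at −0.85 as a mean of probe sets from −1.33 to −0.21, and CROT (0.44) of the peroxisome higher. The phosphoinositide-specific phospholipase PLCB4 (2.39), choline kinase CHKA (1.15) and ceramide synthase CERS6 (1.03) led 13 rises in 73 genes of phospholipids and sphingolipids, and 8 rose without the block.

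Of all lists, that of cholesterol genes had the largest share of members whose change differed between days. In the full model 4 of 29 rose and none fell by limma (1 was lower at an unadjusted p below 0.05), with a median of 0.14, but 18 of the 29 rose on day 1, while 1 rose and 4 fell on the later days. The difference between day 1 and days 2 to 4, tested as an interaction after the data had been seen, passed for 13 of the 29, of which 12 were higher on day 1. Over all genes it passed for 673 (5.63%). The median of the list was 0.32 on day 1 and −0.04 on the later days. HMGCS1, which makes the precursor of mevalonate, changed by 1.06 on day 1 and −0.35 on the later days (adjusted p of the difference = 0.0104, limma), and LSS, which forms the sterol rings, by 0.88 and −0.32 (adjusted p = 0.00207, limma). SQLE went from 0.67 to −0.33 and DHCR7 from 0.59 to −0.63. The efflux pump ABCA1 showed the opposite, with −0.27 on day 1 and 0.73 on the later days. None of these 5 genes passed in the full model. Day 1 holds runs 1 and 2, and what differed between the days is not in the labels.

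**Figure D5:**
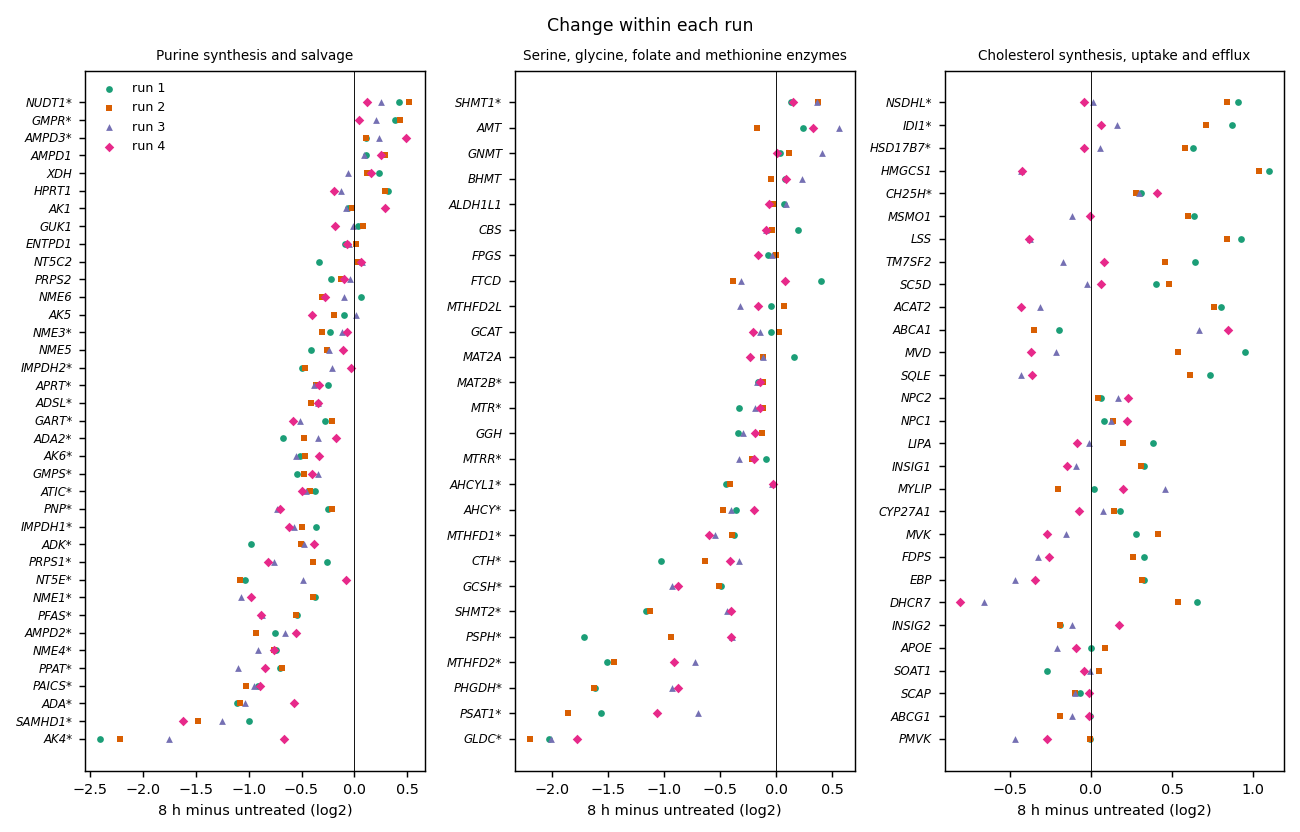
For each enzyme of 3 lists the 8 h minus untreated difference in log2 value is shown within runs 1 and 2 (day 1), run 3 (day 2) and run 4 (day 3), and an asterisk marks genes that passed in the full model. Purine enzymes lie left of 0 in all runs for most genes, the lowest serine enzymes lie further left in runs 1 and 2, and many cholesterol enzymes lie right of 0 in runs 1 and 2 and left of it in runs 3 and 4.

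Of the redox genes 6 of 52 rose and 8 fell (4 without the block). TXNIP, which binds thioredoxin and limits glucose uptake and whose promoter window is shown above, had log2 values of 9.32, 9.32, 9.66 and 9.37 in untreated cells and 10.63, 10.48, 10.82, 10.94 and 10.85 at 8 h. Every treated array was higher, with a change of 1.26 (SE 0.08, adjusted p = 2.32e-07). Catalase (CAT, 0.84) and NQO1 (0.68) rose, and PRDX4 (−0.48) and GPX4 (−0.35) fell. The change of PRDX4 was −0.31 on day 1. FMO5, a flavin monooxygenase, rose by 2.76 with probe sets from 2.07 to 3.46, and the aldo-keto reductase AKR1C3 (0.77), which has close paralogs, rose. ALOX5AP (0.94), needed for leukotriene synthesis, was higher. Solute carriers rose in 28 of 233 cases and fell in 41, close to the background. The copper carrier SLC31A2 (2.02), the choline carrier SLC44A1 (2.39) and the zinc exporter SLC30A1 (0.89) rose, and the zinc importers SLC39A14 (−1.16) and SLC39A4 (−0.91), the glutamine carrier SLC1A5 (−0.62), the arginine carrier SLC7A1 (−0.66) and the glucose carriers SLC2A3 (−0.55) and SLC2A1 (−0.20) fell. ABCB4, a lipid pump, fell by 1.45, with −2.27 on day 1 and −0.69 on the later days.

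The identity of the cells was checked against markers. All 12 B-cell precursor markers measured had a mean log2 value of at least 6.29 in untreated cells. At 8 h the lowest of them, DNTT, averaged 4.97. The mean over the 12 markers per array was 9.79 to 9.85 in untreated cells and 9.37 to 9.58 at 8 h. Of these 12, 6 fell (3 without the block), led by BLNK (−2.15) and DNTT (−1.47). The single riser, CD72 (0.21), did not pass without the block, on day 1, on the later days, or without untreated replicate 4 or 8 h replicate 3 or 5. Untreated replicate 4 was far above the other untreated arrays in DNTT, with values of 5.95, 5.90, 6.01 and 7.29, and the 8 h values of 4.50, 4.67, 4.58, 5.51 and 5.56 were below all of them. T and NK cell markers had a mean of 4.71 to 4.79 in untreated cells and 4.60 to 4.76 at 8 h, and 2 of 15 fell (1 without the block) and 12 were below 5. Erythroid and platelet markers (1 of 8 higher, 5 below 5) and fibroblast and epithelial markers (1 of 10 higher, 7 below 5) were also mostly weak. Not every member was weak, however. The highest member mean was 6.18 in untreated cells and 7.01 at 8 h in the former list, and 13.30 and 13.28 in the latter. Of the genes ranked 11 to 20 among the rises that belong to no family above, VNN1 (3.02), TACC2 (3.02), SESN1 (2.87), a sestrin that limits mTOR signaling, and KANK1 (2.64) are left. Of the falls of those ranks, NELL1 (−1.57), CHAC1 (−1.54), an ATF4 target that breaks down glutathione, NID2 (−1.52), JCHAIN (−1.52) and ABLIM1 (−1.39) are left, with CHAC1 at −2.17 on day 1 and −0.92 on the later days.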

How the data were processed

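RNA of RS4;11 cells was hybridized to 14 arrays, in 5 runs spread over 4 days. The authors deposited log2 expression values after background correction and normalization by the RMA method of affy (names from the submitters' processing notes, versions not stated), and left out 1 untreated array. The methods name Agilent arrays, while the labels name an Affymetrix protocol. The signal has no molecule count behind it, so the number of arrays limits the precision. Median log2 values were 6.03 to 6.05 on untreated arrays and 6.03 to 6.09 at 8 h.

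Of 22277 probe sets, 1043 list several genes and 2164 none, and the 19070 with 1 gene were kept without a filter. Symbols were updated by gene identifier for 19058 of them. Genes were fitted with limma 3.58.1 (R 4.3.3) over all 14 arrays with group and run, and p-values were adjusted by Benjamini-Hochberg. The study's methods name no block. The runs pair the samples: residuals of the untreated and 8 h arrays of the same run correlated with r of 0.299, 0.367, 0.405 and 0.337, although in run 1 the highest correlation with another run was larger, at 0.330. The calculation was tested on simulated data. Named genes were up to 2 with the largest rise and fall in each list whose groups did not overlap, ranks 11 to 20 of the rises and falls, and NR3C1. Other list members in the text were chosen after their values were seen, as was the test between days. The members, the lists and the tests were chosen with earlier results of these data known. Lists are described by counts and medians, without a set test, and 1 list is not reported here. Alternatives were the block, filters, the probe set per gene, 2 scalings, array weights, the samples fitted, the days, thresholds and each array left out. Promoter windows were searched with Python 3.11.15 and pandas.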

Additional observations from a re-analysis of the deposited data

Results flagged for a closer look

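In 18 of 362 groups of arrays (17 of the 181 genes named by rule) a single array stood apart from the rest of its group by Dixon's criterion. Chance gives about 1 in 20 groups, which is near this share. Among untreated arrays, the highest was replicate 3 in ABLIM1 (log2 value 7.67, nearest 7.37), ID2 (8.25, nearest 7.55), MAP3K5 (8.55, nearest 8.24) and TXNIP (9.66, nearest 9.37), replicate 4 in DNTT (7.29, nearest 6.01), and replicate 2 in ICAM2 (10.38, nearest 10.25) and SLC31A2 (5.91, nearest 5.50). Replicate 2 was the lowest in KANK1 (3.94, nearest 4.35) and NR3C1 (11.62, nearest 11.71). Among the 8 h arrays, replicate 3 was the highest in DUSP10 (7.22, nearest 6.93), KANK1 (7.20, nearest 6.82) and RPS6KA2 (6.30, nearest 6.04) and the lowest in IL1B (5.58, nearest 6.32) and SLC27A5 (6.81, nearest 7.14). Replicate 4 was the highest in CEBPB (8.74, nearest 8.53) and the lowest in INPP1 (9.02, nearest 9.32), and replicate 1 was the highest in DHODH (5.66, nearest 5.53) and IL6ST (7.64, nearest 7.46). All 17 genes passed at 8 h with every single array left out in turn, and all but NR3C1 had been picked for passing without overlap.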

How the results depend on the processing

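The count of 3243 genes stayed within 1.5 times under every planned setting except the demand for a 2-fold change, which left 218 genes (145 higher and 73 lower). With no replicate block 2351 genes passed, with the methods' variance filter 3134 of 6894, and with single arrays left out 2770 to 3153 (1217 to 1386 higher and 1528 to 1767 lower). Day 1 alone gave 2379 genes and the later days 2856. The share of calls that were higher was 44.0% and ranged from 39.2% to 47.5%, but was 66.5% when a 2-fold change was demanded. Shifting every array to the same median moved the median of all genes by −0.02 and cyclic loess by 0.01. All 181 genes named by rule kept their sign, 160 passed in every setting that tested them, and 6 (HIBCH, TAOK3, RIPK2, TPI1, PGM1 and UQCRC1) did not pass without some single array, so none of these 6 was used above. Apart from NR3C1, the 181 had been picked for passing and for groups that did not overlap, so their stability is partly fixed by the pick. The replicate block changed the call of 1 gene named by rule, UQCRC1, and calls of other genes lost without it are noted beside them. For the same reason this says little of other genes, as 3243 genes passed with the block and 2351 without it. Of 114 counts of members higher or lower in a list, 77 moved by over 1.5 times in at least 1 setting, 35 without the block and 35 with a single array left out, and only part of these shifts stand beside the counts. Without the block the rises were 1 of 4 for cholesterol genes, 1 of 3 for cytoplasmic tyrosine kinases, 1 of 2 for TNF receptors, 4 of 7 for fatty acid oxidation, 5 of 8 for Toll-like and related receptors and 20 of 32 for ZNF genes. The falls were then 1 of 2 for the ETS and SMAD lists, 4 of 7 for fatty acid synthesis and 24 of 39 for ZNF genes. With single arrays left out, ETS falls were 1 for 7 of the arrays, rises in fatty acid synthesis were 3 without untreated replicate 1 or 3, cholesterol rises ran from 2 to 7, ion channel falls were 10 without 8 h replicate 3, falls in the CDK list were 5 without untreated replicate 1, falls in the cAMP list were 8 without untreated replicate 2 or 3 or 8 h replicate 3, and falls in the respiratory list were as few as 4. Notch, Wnt, semaphorin and plexin genes had 2 rises on day 1. On day 1 alone, besides genes noted above for other settings, RORB, TGIF2, MGA, BCL11B, IKZF2, IL7R, IRF5, NOTCH2, CD69, MAPK13, SPRY4, LYN, APRT, PNP, CTPS1, ODC1, SMS, PDK1, PDK2, ATP5MC1 and SLC2A1 did not pass, and on the later days alone BACH2, IKZF2, TGIF1, S1PR1, IL7R, CD37, NQO1, SLC1A5 and SLC2A1 did not. The probe set with the highest mean in place of the mean gave 2.40 for VDR, 2.45 for RCAN1, −1.31 for CPT1A, −2.77 for LGR5, 1.03 for ELK3, 0.67 for BLK, −0.35 for MYB and −1.14 for NLRP3. Whether weak signal limits the calls among the 4255 genes with a mean log2 value below 5 was not tested. The causes of these differences were not tested.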
